A study of Mus musculus with 9 samples.

Results

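Levels of 10 guidance genes were measured in single cells of the neurogenic lineage of the adult mouse brain and of its neighbours: the Slit receptors Robo1 and Robo2, the ligand Slit2, the plexins Plxna4 and Plxnd1, the neuropilins Nrp1 and Nrp2, the prokineticin receptor Prokr2, the netrin receptor Dcc and the adhesion receptor Flrt2. They were chosen by a rule on their known role in the migration of neuroblasts to the olfactory bulb, which names no measured value but was set with earlier results of these data known, and are 10 of the 32287 genes counted. All mice were TiCY mice, in which tamoxifen activates a Cre recombinase driven by Tlx (Nr2e1) and thereby the fluorescent reporter eYFP in neural stem cells (NSCs) and their progeny. The 4 groups were wild-type (WT) mice of 16 weeks (WT young) and 80 weeks (WT old), and IFNAGR KO mice, which carry deletions of the interferon receptor genes Ifnar1 and Ifngr1, of 16 weeks (KO young) and 92 to 105 weeks (KO old). WT mice received tamoxifen at 10 weeks (young) or 71 weeks (old) and KO mice at 7 weeks (young) or at 85 or 98 weeks (old), and the chase lasted 6 weeks for the young WT mice and 9 weeks for the others. For the old KO mice the age range in the labels and the tamoxifen ages with the chase do not add up to the same ages, and both are given as the labels have them. Each group was 1 droplet reaction that pooled sorted cells of 2 mice, told apart by hashtag antibodies, so that reaction and group cannot be told apart. From the ventricular-subventricular zone (vSVZ), eYFP+ and GLAST+ cells were sorted, and from the rest of the brain (RoB, that is striatum, rostral migratory stream and olfactory bulb together) eYFP+ and eYFP-/PSANCAM low cells, after removal of CD45+, Ter119+ and O4+ cells.

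Neuroblasts born in the vSVZ travel in chains along the rostral migratory stream and turn outwards once they reach the olfactory bulb. Secreted Slit proteins repel them through Robo receptors. Semaphorins act on plexins, which need neuropilins as partners for most of the secreted class 3 semaphorins, while netrin 1 acts on Dcc and prokineticin 2 attracts cells that carry Prokr2. Flrt2 is a transmembrane protein that binds Unc5 receptors and latrophilins.

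The promoters of the 3 genes that were highest in neuroblast-like cells and had an entry in the RefSeq table are shown, since the class levels of these genes are what the first comparison turns on. Each run is the 250 bases before the RefSeq start site, 5′ to 3′ on the strand of the gene, in GRCm38.p6: chr16:74411826-74412075 on the minus strand for Robo2, chr2:132385448-132385697 on the minus strand for Prokr2 and chr12:95691976-95692225 on the plus strand for Flrt2. Capitals mark CAGCTG, a form of the E-box bound by proneural bHLH factors.
Robo2: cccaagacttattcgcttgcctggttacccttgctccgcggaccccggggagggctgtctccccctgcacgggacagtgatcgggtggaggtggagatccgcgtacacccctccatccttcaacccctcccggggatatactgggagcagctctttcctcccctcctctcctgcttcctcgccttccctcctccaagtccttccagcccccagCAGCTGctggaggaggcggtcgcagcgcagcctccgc
Prokr2: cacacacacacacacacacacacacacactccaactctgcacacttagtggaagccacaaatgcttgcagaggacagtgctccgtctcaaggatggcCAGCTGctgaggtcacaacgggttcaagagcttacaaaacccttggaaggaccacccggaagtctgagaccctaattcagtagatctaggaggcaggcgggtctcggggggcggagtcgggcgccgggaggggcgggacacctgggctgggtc
Flrt2: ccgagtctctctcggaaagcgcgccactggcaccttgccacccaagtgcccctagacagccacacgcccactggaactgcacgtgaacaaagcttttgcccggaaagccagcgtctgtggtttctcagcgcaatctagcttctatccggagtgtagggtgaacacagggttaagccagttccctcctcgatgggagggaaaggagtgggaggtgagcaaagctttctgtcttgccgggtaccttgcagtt

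RefSeq lists 3 starts of Robo2, and the one shown is that at the start of the GENCODE gene. The windows before the other two, 680945 and 1035468 bases farther upstream, held no CAGCTG. In the windows shown, CAGCTG occurred 1 time before Robo2, where its first base lay 37 bases before the start, and 1 time before Prokr2, 153 bases before the start, and was not found in the Flrt2 window. It was present in 13.0% of the 32851 promoter windows of the same length. TAATTA, the core bound by homeodomain factors such as the Dlx proteins, was present in 4.84% of all windows, and ACAAT, the core bound by Sox factors, in 27.7%; neither was in the 3 windows shown. Both strands were searched, and with CAGCTG alone found no matches of different motifs overlapped. Of the 10 genes, 8 had a promoter entry that was used. Plxna4 had none, and none was used for Dcc, since entries of the 10 genes on chromosome 18 were left out. The match is a description of letters and not of a bound site.

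Of 844265 barcodes, 18390 passed the filters and 18051 cells remained after removal of 339 predicted doublets, with a median of 5024.5 to 7393 UMIs (unique molecules counted) per cell in the 4 libraries. Clusters were named from fixed markers, and neither the 10 genes nor 81 other guidance genes took part in the clustering. The neuroblast-like class had 6193 cells, of which the young WT library gave 2778, the old WT 314, the young KO 2587 and the old KO 514. The quiescent NSC-like class, which includes astrocytes, had 5753 cells, activated NSC-like 473, transit-amplifying progenitor (TAP)-like 1050, neuron-like 640, olfactory ensheathing glia-like 2024, microglia-like 328, oligodendrocyte-like 133, endothelial-like 101 and oligodendrocyte precursor cell (OPC)-like 81. A further 1275 cells stayed unnamed, 926 of them in cluster 7. Only 30 barcodes were shared by 2 libraries. In KO quiescent cells the targeted receptor Ifngr1 changed by −4.60 (young) and −4.55 (old) on the log2 scale against WT, and Ifnar1 by −2.34 and −3.01.

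The first question was in which cells each gene was expressed. A level is the number of UMIs of a gene per 1000000 UMIs of all genes (CPM) in the sum of a class and library, and mean ± SD is over libraries with at least 20 cells of the class. Where 4 values follow each other they stand for young WT, old WT, young KO and old KO, in this order. Of the 10 genes, 4 were highest in neuroblast-like cells (Robo2, Plxna4, Prokr2 and Flrt2). Slit2 was highest in activated NSC-like cells, Plxnd1, Nrp1 and Nrp2 in endothelial-like cells, and Robo1 and Dcc in OPC-like cells, so the name of the gene group describes 4 of its members by level and not the others. Dcx, the marker of neuroblasts, stood at 759 CPM in neuroblast-like and 7.13 CPM in quiescent NSC-like cells.

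Robo2 (ENSMUSG00000052516, chr16:73891839-74411825, minus strand) was at 165, 228, 172 and 237 CPM in neuroblast-like cells, a mean of 200.4 ± 37.0 (SD, n = 4 libraries). All 4 values lay above every value of another class. Neuron-like cells came next with 87.7 ± 7.84, and then TAP-like cells with 36.5 ± 17.5 and quiescent NSC-like cells with 18.4 ± 3.32, whose libraries overlapped with those of TAP-like cells. Robo2 was at 2.97 ± 3.76 in olfactory ensheathing glia-like and 6.01 ± 7.15 in microglia-like cells. In near-empty barcodes, which hold free RNA, its level was 62.1, 37.9, 87.3 and 47.9, above that of each quiescent library. Over all libraries, the neuroblast marker Tubb3 was at 3038 in neuroblast-like, 23.7 in quiescent NSC-like, 24.9 in olfactory ensheathing glia-like and 52.1 in microglia-like cells, and the part of free RNA in the low Robo2 levels was not tested.

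Robo1 (ENSMUSG00000022883, chr16:72308306-73046095, plus strand), the other Slit receptor of the pair, did not share this pattern. Its level in neuroblast-like cells was 16.5, 24.3, 22.4 and 22.6 CPM, and in quiescent NSC-like cells 18.8, 31.3, 26.8 and 31.1. The ranges of both classes overlapped, although the quiescent class was higher in each library. Near-empty barcodes had 7.999, 19.8, 36.8 (from 8 UMIs) and 13.4, which in young KO lay above both classes. The only OPC-like library with at least 20 cells, that of old KO mice, had 69.4 (27 UMIs). Microglia-like cells held 1 UMI of Robo1 in all and endothelial-like cells none.

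Slit2 (ENSMUSG00000031558, chr5:47983138-48307733, plus strand), the secreted ligand, was at 31.4, 85.8, 47.5 and 90.2 CPM in activated NSC-like cells, from 284 UMIs. These 4 values lay above all those of the other classes with at least 20 cells, and both old libraries lay above both young ones. Quiescent NSC-like cells had 8.58, 8.83, 9.36 and 20.1, where the old KO library stood apart, and neuroblast-like cells 4.89, 6.49, 5.63 and 9.71. No UMI of Slit2 was counted in the microglia-like and oligodendrocyte-like cells of the libraries with at least 20 cells.

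Plxna4 (ENSMUSG00000029765, chr6:32144268-32588192, minus strand), a plexin for class 3 and class 6 semaphorins, was at 197, 256, 232 and 258 CPM in neuroblast-like cells (236 ± 28.5, SD, n = 4). Microglia-like cells were second with 45.1, 62.6, 59.7 and 80.5, a range that overlapped neither with the class above nor with the class below. TAP-like cells had 28.0 ± 7.82, neuron-like cells 18.4 ± 8.07 and quiescent NSC-like cells 11.6 ± 0.715, below the 25.5 to 91.9 of near-empty barcodes. Plxnd1 (ENSMUSG00000030123, chr6:115954811-115995005, minus strand), a receptor for semaphorin 3E known from blood vessels, was near absent from the lineage. It had 10 UMIs in all 6193 neuroblast-like cells, 7 in TAP-like and none in neuron-like cells, against 59.6 ± 14.7 (n = 3) in endothelial-like and 15.8 ± 6.70 in olfactory ensheathing glia-like cells.

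The neuropilins differed between the vascular, immune and neuronal cells. Nrp1 (ENSMUSG00000025810, chr8:128358604-128503363, plus strand), a partner of plexins that also binds VEGF, was at 235 ± 129 (n = 3) in endothelial-like and at 121, 278, 101 and 245 CPM in microglia-like cells, where both old libraries were above both young ones. The difference with age in microglia-like cells was not tested, since too few old mice had 20 cells with a hashtag. In the lineage Nrp1 was highest in quiescent NSC-like cells (19.4, 22.8, 22.6 and 26.3) and at 2.36 ± 2.04 in neuroblast-like cells, with 4.19 to 12.3 in near-empty barcodes. Nrp2 (ENSMUSG00000025969, chr1:62703285-62818695, plus strand) showed the opposite order in the lineage, with 0.593 ± 0.236 in quiescent NSC-like, 4.89 ± 1.399 in neuroblast-like and 12.7 ± 1.98 in neuron-like cells. The ranges of these 3 classes did not overlap. Nrp2 also had 33.2 ± 8.05 in microglia-like and 45.3 ± 20.03 in endothelial-like cells.

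Prokr2 (ENSMUSG00000050558, chr2:132337733-132385447, minus strand), the receptor for prokineticin 2, had 20.7, 20.6, 17.7 and 21.5 CPM in neuroblast-like cells (610 UMIs in all) and 5 UMIs in all 5753 quiescent NSC-like cells. Neuron-like cells had 9.11, 0, 2.81 and 0.758, from 12 UMIs together, and none of the neuroblast-like libraries overlapped with these. No UMI of Prokr2 was found in the microglia-like or endothelial-like cells.

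Dcc (ENSMUSG00000060534, chr18:71253634-72351069, minus strand), the netrin receptor, was low in all classes of the lineage. TAP-like cells had 15.6, 44.0, 11.7 and 38.6 CPM, with both old libraries above both young ones, though the old ones rest on 19 and 29 UMIs. Neuroblast-like cells had 10.0, 5.95, 12.7 and 7.98, where both old libraries lay below both young ones, and the same held for quiescent NSC-like cells with 5.33, 1.24, 4.34 and 1.83. Near-empty barcodes had 7.24, 7.08, 27.6 (from 6 UMIs) and 9.36, so that the neuroblast-like level lay above them in young WT alone and the quiescent level in no library. The old KO OPC-like library had 77.1 (30 UMIs). Flrt2 (ENSMUSG00000047414, chr12:95692226-95785215, plus strand) had 143, 202, 138 and 125 CPM in neuroblast-like cells (152 ± 34.4), 64.4 ± 5.50 in TAP-like and 22.1 ± 5.78 in quiescent NSC-like cells, with 24.9 to 54.1 in near-empty barcodes. The ranges of its neuroblast-like and endothelial-like levels overlapped, the second running from 14.9 to 142 (n = 3) from 25 UMIs.

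**Figure D1:**
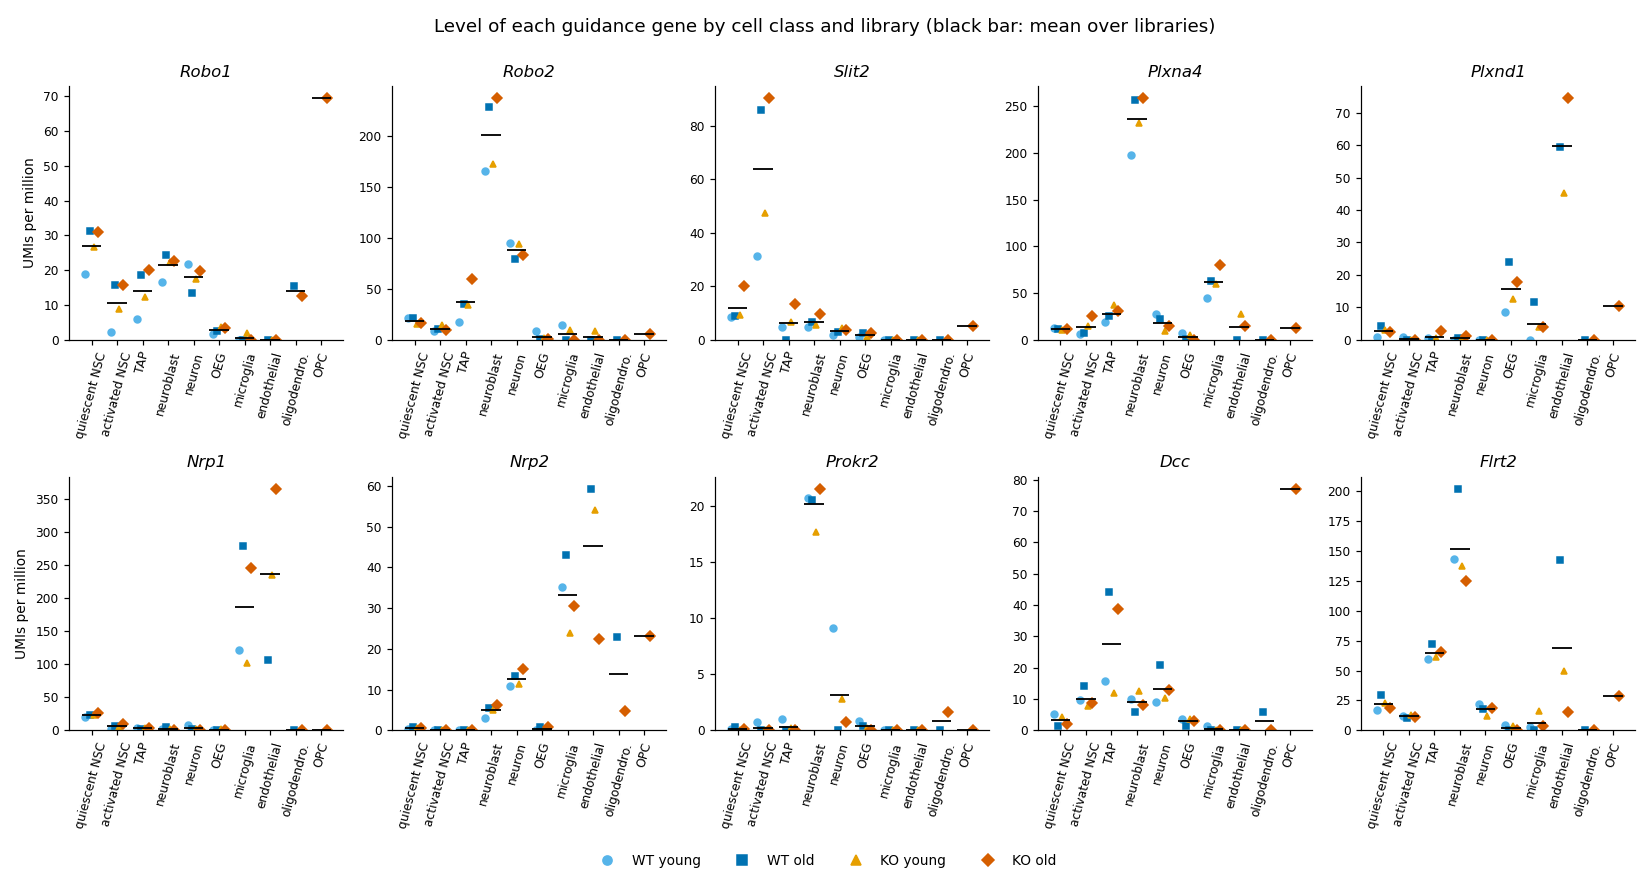
Level of each of the 10 genes (CPM, that is UMIs of the gene per 1000000 UMIs, on linear axes that differ between panels) in every class and library with at least 20 cells; a point is 1 library, coloured and shaped by group, and the black bar is the mean over libraries. Robo2, Plxna4, Prokr2 and Flrt2 have their highest mean in neuroblast-like cells, from 20.1 for Prokr2 to 236 for Plxna4, while Slit2 peaks in activated NSC-like cells at 63.8.

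To follow the genes along the lineage, named classes were compared within libraries. Cluster 7 (926 cells, 91.0% with an eYFP UMI, led by Hells, Ccnd2 and Mcm5) stayed unnamed and is in none of these steps. Flrt2, Robo2, Slit2 and Robo1 were at 66.2, 17.9, 15.1 and 6.05 CPM there. Robo2, Plxna4, Prokr2, Flrt2, Nrp2 and Dcc were higher in neuroblast-like than in quiescent NSC-like cells and Nrp1, Plxnd1, Slit2 and Robo1 were lower. On the CPM scale, the neuroblast-like level was 15.7 to 22.7 times the quiescent level for Plxna4 in the 4 libraries, 7.69 to 14.7 times for Robo2, 5.97 to 8.35 times for Flrt2 and 6.21 to 10.8 times for Nrp2. In the edgeR quasi-likelihood fit with the library as a block (13857 genes), this was a log2 change of 4.03 ± 0.16 (SE) for Plxna4 (adjusted p = 3.22e-24), 3.12 ± 0.15 for Robo2 (3.00e-21), 2.43 ± 0.13 for Flrt2 (4.74e-20), 2.59 ± 0.36 for Nrp2 (2.81e-08), 6.63 ± 0.38 for Prokr2 (3.85e-18) and 1.31 ± 0.32 for Dcc (3.49e-04). The change was −3.90 ± 0.30 for Nrp1 (3.93e-15), −2.88 ± 0.43 for Plxnd1 (1.77e-07), −1.08 ± 0.20 for Slit2 (1.29e-05) and −0.62 ± 0.16 for Robo1 (6.00e-04). All 10 genes passed the test, 6 up and 4 down, and so did 75.5% of all genes, with a median log2 change of −0.26 over all genes and 1.87 over the 10. At the 4 single steps described next, the median of all genes was −0.18, −0.13, 0.03 and 0.11. The Robo1 call was lost without the old KO library (−0.35, adjusted p = 0.0903), and the sign of Slit2 turned with coarser clusters (0.38). In quiescent cluster 6, where 50.4% of cells had an eYFP UMI, Robo1, Dcc and Nrp1 were at 9.08, 12.6 and 2.48 CPM. Neuroblast-like cells had 21.4, 9.16 and 2.36, so the means of Robo1 and Dcc went the other way, with overlapping ranges. Plxnd1 had 1 UMI in that cluster, and the other genes kept their direction. The part of the mix of quiescent clusters, which include astrocytes, was not tested.

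The path between both ends was not the same for all genes. From quiescent to activated NSC-like cells 2 members were higher and 6 lower (51.9% of all genes were called). In quiescent cluster 6, described below, Slit2, Dcc, Robo1, Flrt2, Nrp1 and Robo2 were at 59.1, 12.6, 9.08, 10.1, 2.48 and 21.1 CPM. Activated cells had 63.8, 10.1, 10.6, 11.7, 5.91 and 10.8, and of these genes only Robo2 had ranges without overlap. The part of the mix of quiescent clusters, which include astrocytes, in the changes of this step was not tested. Slit2 was higher by 1.95 ± 0.19 on the log2 scale (edgeR adjusted p = 6.99e-11) and Dcc by 1.11 ± 0.45 (0.0394). Nrp1 changed by −2.45 ± 0.37 (3.19e-07), Robo1 by −1.92 ± 0.24 (9.34e-09), Flrt2 by −1.25 ± 0.28 (2.08e-04) and Robo2 by −1.07 ± 0.34 (0.00742). Plxnd1 (5.19e-04) had 111 UMIs in quiescent and 1 UMI in activated cells, a ratio of 13.4 with a counting interval of 2.36 to 535. Nrp2 (0.0333) had 25 UMIs against none, and no fold is given since its quiescent level of 0.608 CPM was as low as the floor that 3 counts set in the activated cells, 0.603. The Flrt2 change turned to 0.46 when guidance genes took part in the clustering and to 0.56 with predicted doublets kept, where the class was drawn differently and its Flrt2 level was 36.0 and 38.1 in place of 11.7. The Dcc call was lost without the old KO or the old WT library (adjusted p = 0.0779 and 0.133), the Nrp2 call without any of the 4 libraries (0.0665 to 0.123), and the Robo2 call with coarser clusters (−0.36, 0.233). DESeq2 called neither Robo2 (0.0757) nor Nrp2 (0.0704).

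From activated NSC-like to TAP-like cells 4 members were higher and 1 lower, with 50.7% of all genes called. Slit2 dropped by 2.91 ± 0.25 (edgeR adjusted p = 2.69e-12), while Flrt2 was higher by 2.49 ± 0.26 (1.64e-10), Robo2 by 1.4996 ± 0.35 (4.52e-04), Plxna4 by 1.15 ± 0.34 (0.00398) and Dcc by 1.16 ± 0.42 (0.0210). The calls of Dcc and Plxna4 were lost without the old KO (adjusted p = 0.0559) and the young KO library (0.0781), respectively, and that of Plxna4 also in DESeq2 (0.0620). At the step to neuroblast-like cells 6 members were higher and 1 lower, with 49.6% of all genes called. Nrp2 (6.54e-08) had 1 UMI in TAP-like and 137 in neuroblast-like cells, a ratio of 59.3 with a counting interval of 10.5 to 2361. Prokr2 was higher by 4.93 ± 0.40 (7.19e-13) from 9 UMIs, Plxna4 by 3.04 ± 0.18 (1.43e-17), Robo2 by 2.69 ± 0.19 (9.53e-16), Flrt2 by 1.19 ± 0.14 (3.22e-09) and Robo1 by 0.91 ± 0.21 (3.87e-04). Dcc fell by 0.96 ± 0.32 (0.0128), a call that was lost without the old KO or the old WT library (0.124 and 0.0525).

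From neuroblast-like to neuron-like cells the order turned for most of these genes: 1 member was higher and 5 lower, with 59.5% of all genes called. Plxna4 fell by 4.03 ± 0.25 on the log2 scale (edgeR adjusted p = 1.05e-17), Flrt2 by 3.20 ± 0.22 (3.31e-16), Prokr2 by 2.88 ± 0.40 (7.15e-08), Robo2 by 1.19 ± 0.17 (1.49e-07) and Slit2 by 0.99 ± 0.40 (0.0322). Nrp2 was higher by 1.38 ± 0.33 (3.85e-04). The Slit2 call was lost without the old KO (0.128) or the young WT library (0.0921) and in DESeq2 (0.0506). Robo1, Dcc, Nrp1 and Plxnd1 did not pass the test at this step. An eYFP UMI was found in 7.67% and 1.89% of cells in neuron-like clusters 10 and 21, against 44.3% to 78.9% in the neuroblast-like clusters. Whether the neuron-like cells are progeny of the neuroblast-like cells was not tested. Plxna4 was at 6.78 ± 7.61 CPM in cluster 10. In cluster 21 it was at 194 (15 UMIs) in young KO, the only library with 20 cells, where Flrt2 and Prokr2 had 1 UMI each.

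**Figure D2:**
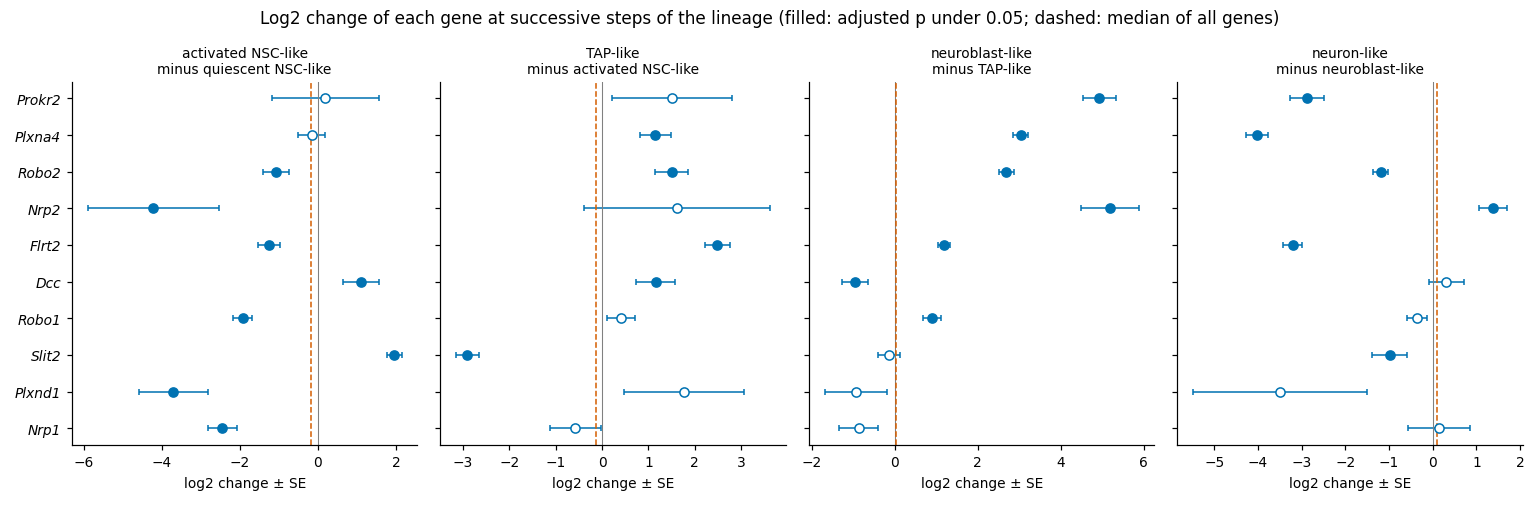
Log2 change ± SE of each gene (vertical list) at 4 successive steps of the lineage, from the edgeR fit with the library as a block; filled points passed the test and the dashed line is the median of all genes at that step. Slit2 lies at 1.95 at the first step and −2.91 at the second, and Prokr2, Nrp2, Plxna4 and Robo2 have their largest rise at the step to neuroblast-like cells. The quiescent class of the first step includes astrocytes, few cells of the neuron-like class had an eYFP UMI, and the unnamed cluster 7 is in no step.

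Other guidance genes of the fixed list of 81 moved both ways. Between quiescent NSC-like and neuroblast-like cells, 68 of the 81 passed the count filter. Of these, 31 were higher and 30 lower in neuroblast-like cells, with a median log2 change of 0.04, beside 75.5% of all genes called. The largest rises were those of Slit1, a second Slit ligand (5.52 ± 0.32), the adhesion molecule L1cam (5.22 ± 0.34) and Dscam (5.06 ± 0.39), and the largest falls those of Vegfa, a ligand of Nrp1 (−6.05 ± 0.18), Sema4d (−4.97 ± 0.32) and Sema4a (−4.63 ± 0.19). Of the same 68 genes, 36 were higher and 8 lower at the step from TAP-like to neuroblast-like cells, beside 49.6% of all genes called. In neuron-like against neuroblast-like cells 26 were higher and 27 lower, beside 59.5% of all genes called.

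Neuroblast-like cells fell into 3 clusters, in which the members differed. Cluster 0 (led by Stmn2 and Dlx2) had 3024 cells, cluster 1 (led by Igfbpl1 and Stmn2) 2641 and cluster 11 (led by Sp8 and Igfbpl1) 528, of which the old KO library held 19 and was left out of the mean. Prokr2 was at 6.84, 0, 2.84 and 0 CPM in cluster 0, and at 49.9, 40.8, 35.2 and 37.9 in cluster 1. The 4 values of cluster 1 lay above the 3 values of cluster 11, which ran from 11.6 to 14.9, and these above all of cluster 0. Nrp2 was at 0.660 ± 0.628 in cluster 0 and 9.62 ± 0.929 in cluster 1 (SD, n = 4), again without overlap.

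Robo2 was at 111 ± 16.7 in cluster 0, 275 ± 31.5 in cluster 1 and 273 ± 47.2 in cluster 11, so that clusters 1 and 11 overlapped and cluster 0 stood below both. Plxna4 was at 188 ± 8.78 in cluster 0 and 298 ± 22.9 in cluster 1, and its 3 values in cluster 11 ran from 125 to 255, across the range of cluster 0. Flrt2 was at 125 ± 21.6, 197 ± 57.1 and 80.9 ± 17.4 in clusters 0, 1 and 11. In cluster 1 its values were 186, 276, 187 and 139.96, highest in old WT and lowest in old KO. Robo1 did not separate the clusters, with 25.7 ± 10.2, 18.4 ± 6.91 and 17.3 ± 15.4. Nrp1 was at 15.6 ± 13.3 in cluster 11 and at 1.39 ± 0.273 and 0.484 ± 0.523 in clusters 0 and 1. No test was run between clusters, since clusters are drawn from the cells' expression, though not from these genes.

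Cluster 1 made up 33.5%, 51.9%, 47.4% and 62.5% of the neuroblast-like cells of the 4 libraries, and cluster 0 58.1%, 37.3%, 43.3% and 33.9%. The part of this mix in the levels of the whole class was not tested.

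**Figure D3:**
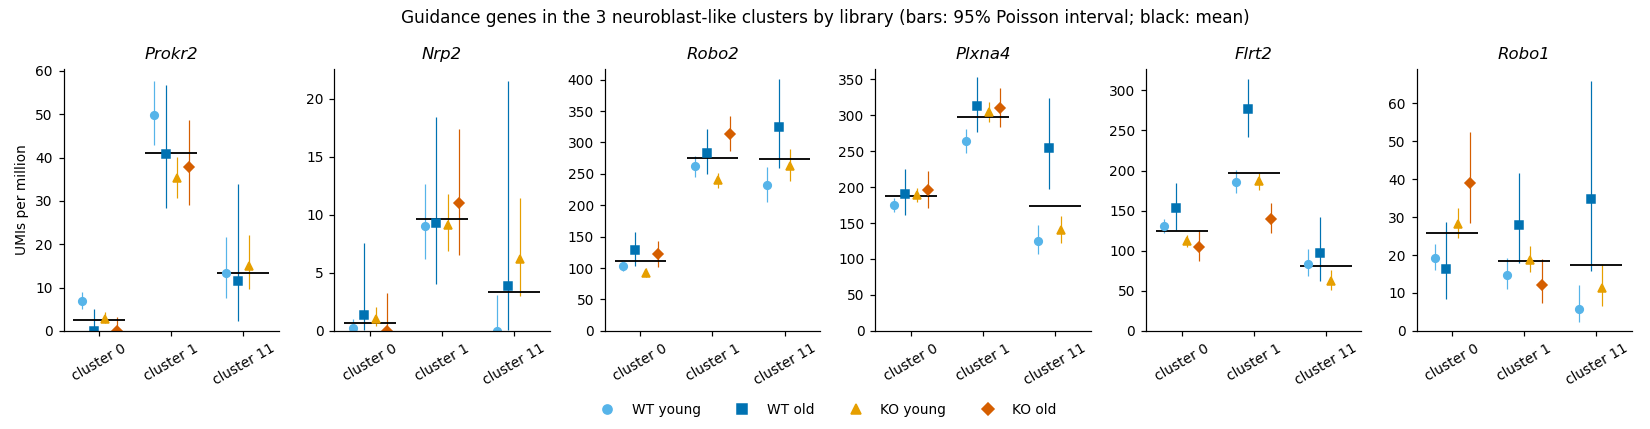
Levels (CPM) of 6 members in the 3 neuroblast-like clusters; a point is 1 library with its exact 95% Poisson interval, which covers counting error only, and the black bar is the mean. Prokr2 and Nrp2 are highest in cluster 1 (means 40.9 and 9.62), and Robo2 is lowest in cluster 0 (111).

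Within the quiescent NSC-like class the members marked different clusters. Cluster 6, led by Prss56, Thbs4 and Crym, was the cluster with the highest share of cells with an eYFP UMI (50.4%, against 4.55% to 10.7% in the other 5 quiescent clusters) and is called the eYFP-rich cluster here. Slit2 was at 25.8, 50.6, 35.5 and 124 CPM there, and Dcc at 13.97, 9.38, 17.2 and 9.88. Both old libraries lay above both young ones for Slit2 and below both for Dcc. In the other 5 clusters the mean of Dcc ran from 0.646 to 2.19. Of the UMIs in hashtagged vSVZ quiescent cells, the eYFP-rich cluster held 40 of 45 for Dcc (88.9%) and 200 of 281 for Slit2 (71.2%), against 26.8% of the UMIs of all genes.

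Nrp1 and Plxnd1 were low in that cluster, which held 3.02% and 2.78% of their UMIs. Robo1 was lowest there among the quiescent clusters with any Robo1 UMI, at 9.08 ± 5.25, and reached 44.0 ± 7.35 in cluster 5 and 40.1 ± 10.6 in cluster 4. Nrp1 was at 41.1 ± 9.91 in cluster 4 and 43.0 ± 8.81 in cluster 12, and Flrt2 at 34.2 ± 15.9 in cluster 4. Robo2 was at 119 ± 48.3 in cluster 17 and 39.0 ± 6.69 in cluster 12, against 6.72 to 21.1 as means of the other quiescent clusters. Hashtags placed 99.1% of the called cells of cluster 17 and 90.2% of those of cluster 12 in the RoB.

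Age and genotype were compared in the quiescent NSC-like cells of the vSVZ, with UMIs summed per mouse (2 mice per group, each mouse with 144 to 321 cells). The same sums of young WT mice serve as controls in several of these comparisons. With 2 mice per group from 1 reaction, p-values measure the spread between these mice and cannot separate a group from its reaction. The libraries had a median of 5 to 7 hashtag counts per cell. With a posterior of at least 0.95 for the hashtag call, the mice kept 77 to 188 of these cells each. How well the calls separated the 2 mice of a group was not tested. Of the 10 genes, 8 passed the count filter (10420 genes), and Nrp2 and Prokr2, with 3 and 0 UMIs, did not. In old WT mice Plxnd1 and Flrt2 were higher and Dcc was lower than in young WT mice, and in KO mice Slit2 was higher with age.

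Flrt2 was at 11.2 and 16.7 CPM in young WT mice and 26.6 and 36.3 in old WT mice, a log2 change of 1.15 ± 0.30 (SE; edgeR adjusted p = 0.00810). Young KO mice had 22.4 and 19.5 and old KO mice 17.2 and 13.8 (−0.40 ± 0.26, 0.479). The WT groups did not overlap, and the KO groups went the other way without passing the test. The difference between both age changes was −1.55 ± 0.40 (adjusted p = 0.0520) and did not pass the test. The genotype change in old mice was −1.02 ± 0.25 (0.108). The age call in WT was lost if the second old WT mouse (0.84, adjusted p = 0.212), the first young WT mouse (0.93, 0.0797) or the eYFP-rich cluster (0.85, 0.170) was left out, and in DESeq2 (1.13, 0.0864). The interaction passed without the first old WT mouse (−1.71, 0.0329).

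Plxnd1 had no UMI in either young WT mouse (0 of 2236407 UMIs) and 7 and 11 UMIs in the old WT mice, levels of 6.43 and 5.19 CPM. The pooled level in old WT, 5.61 CPM, was 4.18 times the level that 3 counts in both young WT mice together would give (edgeR adjusted p = 0.0107). This figure leaves out the counting error of the 18 UMIs in old WT, and was 2.35 without the eYFP-rich cluster. That cluster held 1 of 36 Plxnd1 UMIs, and its share of cells, given below for Dcc, was lower in old mice. The part of the cluster share in the Plxnd1 change was not tested. Young KO mice had 0 and 1.82 and old KO mice 3.35 and 2.85, a change that did not pass the test (adjusted p = 0.352). The WT call was lost without the second old, the first young or the second young WT mouse (adjusted p = 0.0520, 0.0645 and 0.184). With strict hashtag calls, without the eYFP-rich cluster, with cells of every hashtag and with coarser clusters Plxnd1 did not pass the count filter and was not tested. In near-empty barcodes Plxnd1 was at 2.29, 8.21, 0 and 9.36, higher in both old libraries and above the levels of the old mice, and the part of free RNA in this change was not tested.

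Dcc was at 8.72 and 5.58 CPM in young WT mice and 0.918 and 0.471 in old WT mice (edgeR adjusted p = 0.0155). This was 15 UMIs against 2, a ratio of young to old of 10.8 with a counting interval of 2.50 to 97.0. Young KO mice had 3.28 and 7.73 and old KO mice 1.68 and 0.475 (−2.25 ± 0.71, 0.0704). Young and old mice did not overlap in either genotype. The share of the eYFP-rich cluster, which held most Dcc UMIs, was 45.8% and 51.6% of the vSVZ quiescent cells of young WT mice, 22.1% and 10.8% of old WT, 37.6% and 38.0% of young KO and 15.9% and 16.4% of old KO mice. Inside that cluster Dcc was at 19.3 and 10.8 in young WT and 4.29 and 4.21 in old WT mice, from 15 and 2 UMIs, a ratio of 3.20 whose counting interval of 0.745 to 28.9 included equal levels. Young KO mice had 7.98 and 18.9 there and old KO mice 8.22 and 0. The part of the cluster share in the fall was not tested. The WT call was lost without the second old (adjusted p = 0.204), the first young (0.0942) or the second young WT mouse (0.0793), and with strict hashtag calls, without the eYFP-rich cluster and with coarser clusters Dcc was not tested, since it did not pass the count filter.

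Slit2 also had most of its UMIs in that cluster, and the part of the cluster share in its levels was not tested. Slit2 was at 9.85 and 20.5 CPM in young KO mice and 28.5 and 35.1 in old KO mice, a log2 change of 1.06 ± 0.29 (edgeR adjusted p = 0.0289). Young WT mice had 18.7 and 10.5 and old WT mice 21.1 and 10.8 (0.11 ± 0.41, 0.895), and their ranges overlapped. In near-empty barcodes Slit2 was at 4.95, 9.06, 0 and 12.8, below the levels of the old KO mice, and its part in the change was not tested. Within the eYFP-rich cluster, old KO mice had 126 and 139 CPM and young KO mice 23.9 and 44.1 (1.97 ± 0.29, adjusted p = 6.18e-04). Old WT mice had 64.4 and 46.3 there and young WT mice 33.2 and 17.6 (adjusted p = 0.186). In neither genotype did young and old mice overlap in this cluster, which was looked at alone after seeing the data. The age difference between KO and WT was 0.95 ± 0.51 in all quiescent cells (0.429) and was not called. The KO call in all quiescent cells was lost without the first young KO mouse (0.67, 0.356), the second old KO mouse (0.88, 0.232) or the eYFP-rich cluster (1.18, 0.327), and in DESeq2 (1.09, 0.352).

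Of the 8 genes tested, 3 were called for age in WT mice, beside 15.1% of all genes, and 1 for age in KO mice, beside 4.58%. None was called for genotype in young mice (2.75% of all genes), for genotype in old mice (0.182%) or for the interaction (1.01%). At an unadjusted p under 0.05 these were 2 for genotype in young mice (Nrp1 and Robo1), 3 in old mice (Flrt2, Robo1 and Slit2) and 1 for the interaction (Flrt2). DESeq2 also called 0 for genotype in old mice and gave the 8 genes no adjusted p for genotype in young mice and for the interaction. Nrp1 was at 4.98 and 9.07 CPM in young WT, 17.4 and 15.1 in old WT, 15.9 and 18.2 in young KO and 22.2 and 19.9 in old KO mice. The young WT mice lay below all others. Against them, young KO mice differed by 1.19 ± 0.37 on the log2 scale (edgeR adjusted p = 0.0801) and old WT mice by 1.07 ± 0.39 (0.0598), but by 0.25 with the eYFP-rich cluster left out. Robo1 was at 13.7 and 13.95 CPM in young WT, 25.7 and 21.2 in old WT, 20.2 and 23.6 in young KO and 33.5 and 36.1 in old KO mice. Its age change was 0.72 ± 0.30 in WT (0.103) and 0.68 ± 0.21 in KO (0.0581), and no young mouse overlapped with an old mouse of the same genotype. The eYFP-rich cluster, whose share was lower in old mice, held 30 of 349 Robo1 UMIs (8.60%), against 26.8% of the UMIs of all genes. The part of the cluster share in the Robo1 levels was not tested.

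Robo2 and Plxna4 showed no called change in these cells. Robo2 ran from 10.4 to 19.5 and Plxna4 from 6.23 to 15.3 over the 8 mice. Among the other guidance genes, 42 were tested, of which 9 rose and 1 fell with age in WT, beside 15.1% of all genes called. The largest rises were those of the netrin receptor Unc5c (1.97 ± 0.50), Sema4b (1.61 ± 0.15) and Vegfa (1.37 ± 0.11), and the only fall was that of Ntn1, the netrin ligand of Dcc (−1.65 ± 0.55, edgeR adjusted p = 0.0418).

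**Figure D4:**
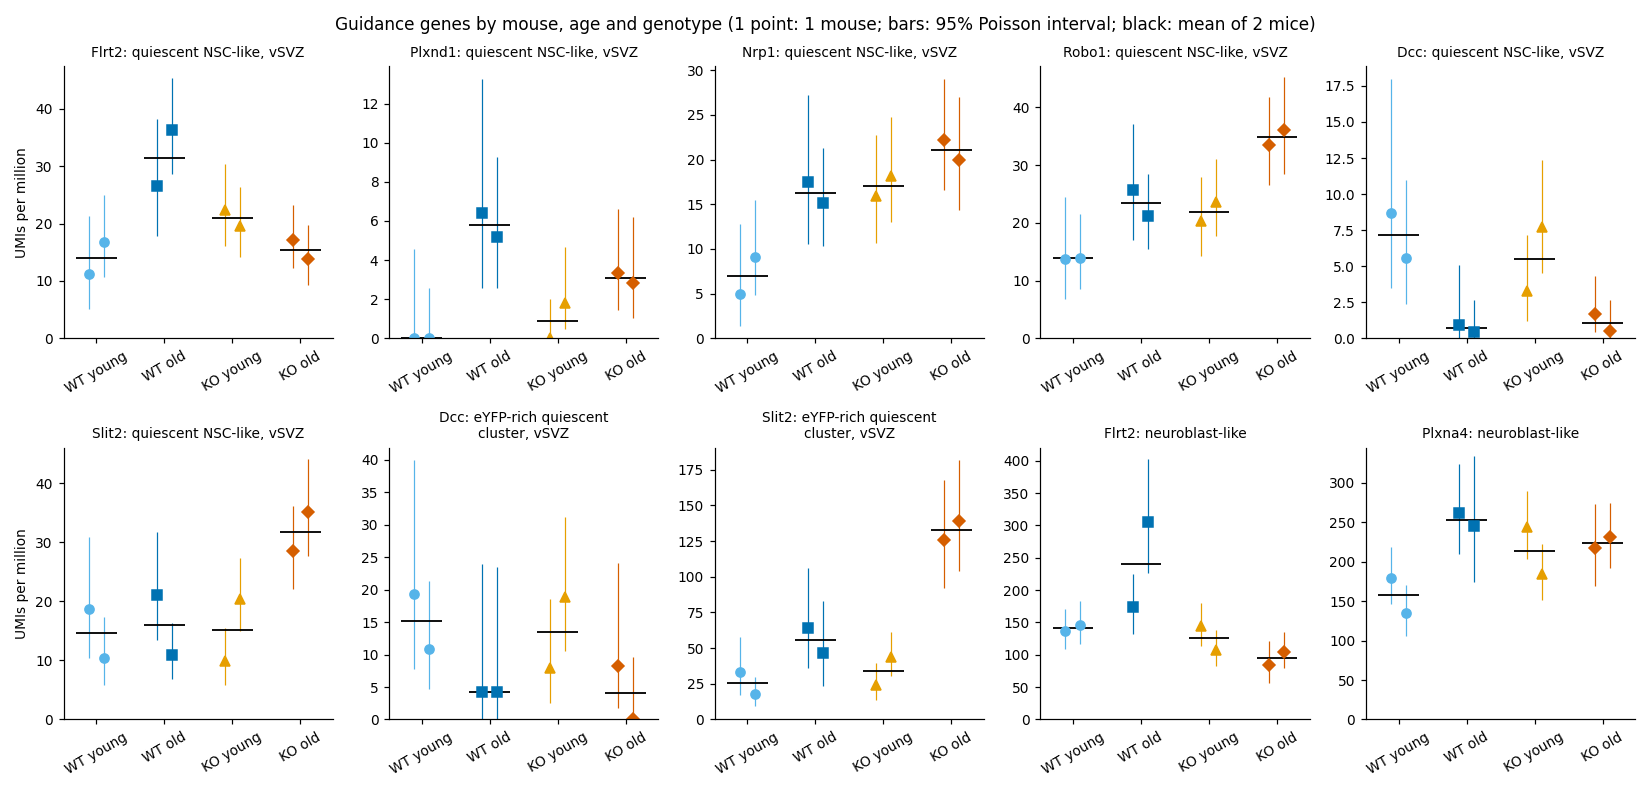
Levels (CPM) of 6 members in the quiescent NSC-like cells of the vSVZ, of Dcc and Slit2 in the eYFP-rich quiescent cluster, and of Flrt2 and Plxna4 in neuroblast-like cells; a point is 1 mouse with its exact 95% Poisson interval and the black bar is the mean of 2 mice. Slit2 in the eYFP-rich cluster is at 126 and 139 in the 2 old KO mice, above the 6 other mice.

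In neuroblast-like cells hashtags were called for 679 of 6193 cells (10.96%), and how well these calls separated the mice was not tested. Sums per mouse held 30 to 130 cells. Robo1, Robo2, Plxna4, Prokr2 and Flrt2 passed the filter (6699 genes), and 2 changes were called. Plxna4 was at 179.6 and 135 CPM in young WT and 262 and 245 in old WT mice (0.66 ± 0.20, edgeR adjusted p = 0.0405; 2.82% of all genes were called). Young KO mice had 243 and 184 and old KO mice 217 and 231, between which no change was called (0.07 ± 0.17). Over all neuroblast-like cells, with or without a hashtag, Plxna4 was at 197 in young WT and 256 in old WT. The call was lost without the first (adjusted p = 0.366) or second old WT mouse (0.0558), without the second young WT mouse (0.395) and in DESeq2 (0.0844).

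Flrt2 was lower in neuroblast-like cells of old KO than of old WT mice, with 84.3 and 104 against 175 and 306 CPM in the 2 mice of each group (−1.19 ± 0.24, edgeR adjusted p = 0.0234; 0.0896% of all genes were called). Young mice had 137 and 147 in WT and 144 and 108 in KO (−0.19 ± 0.20, 0.782). The second old WT mouse had the highest value, from 30 cells, and without it the call was lost (−0.85, 0.350), as it was without the first old KO mouse (−1.08, 0.0695) and in DESeq2 (0.435). Over all cells of the class Flrt2 was at 202 in old WT and 125 in old KO. The age change of Flrt2 in WT was 0.61 ± 0.22 (0.109) and in KO −0.39 ± 0.23 (0.677), with a difference between both of −0.9999 ± 0.31 (0.165), which was not called but passed without the first old WT mouse (−1.43, 0.0165).

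No member was called in neuroblast-like cells for age in KO (0.239% of all genes), for genotype in young mice (1.39%) or for the interaction (0.463%). At an unadjusted p under 0.05 these were 1 (Robo2), 1 (Plxna4) and 2 (Flrt2 and Plxna4), and DESeq2 called none where it gave an adjusted p. Robo2 was at 146 and 169 CPM in young WT, 249.8 and 214 in old WT, 123 and 164 in young KO and 193 and 223 in old KO mice. Old mice lay above young mice of the same genotype, with changes of 0.56 ± 0.20 in WT (edgeR adjusted p = 0.112) and 0.53 ± 0.18 in KO (0.2604). Neither passed the test. Prokr2 and Robo1 had no unadjusted p under 0.05 in these comparisons.

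Among the other classes, olfactory ensheathing glia-like cells had 3 members tested and none called for age in WT (2.02% of 10084 genes), age in KO (0.278%), genotype in young (0.575%), genotype in old (0.387%) or the interaction (0%). For the interaction edgeR called no gene, with 1000 at an unadjusted p under 0.05, and DESeq2 called 11. At an unadjusted p under 0.05 these were 3, 1, 1, 0 and 1 of the members, and DESeq2 called none where it gave an adjusted p. Plxnd1 was at 8.57, 24.1, 12.6 and 17.8 CPM, and its age change in WT was 1.59 ± 0.47 (adjusted p = 0.0917). The other 2, Robo2 and Plxna4, had at most 10 and 19 UMIs in a library of this class. In microglia-like cells only genotype in young mice could be tested. Nrp1 changed by −0.32 ± 0.32 (0.891) and Plxna4 by 0.40 ± 0.45 (0.911), and neither passed at an unadjusted p under 0.05 or in DESeq2 (0.279% of 3945 genes were called).

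Both tissues were compared within mice in quiescent NSC-like cells, a class that includes astrocytes. The tissues were sorted through different gates, so tissue and gate cannot be told apart. Robo2 and Nrp1 were higher in RoB than in vSVZ cells in 8 of 8 mice. Robo2 ran from 10.4 to 19.5 (median 15.1) in the vSVZ and from 21.1 to 101 (median 34.5) in the RoB, and Nrp1 from 4.98 to 22.2 (median 16.7) and from 24.2 to 47.1 (median 29.9). For both genes the lowest RoB mouse stood above the highest vSVZ mouse. In the edgeR fit with the mouse as a block (7996 genes, 13.4% called), the log2 change was 1.38 ± 0.19 for Robo2 (adjusted p = 8.67e-07) and 1.05 ± 0.19 for Nrp1 (1.09e-04). Flrt2, Plxna4 and Robo1 were tested and not called, with RoB higher in 3, 5 and 4 of 8 mice, and Slit2 was too low in RoB cells to be tested (20 UMIs against 281).

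Clusters 12 and 17, of which over 90% came from the RoB, held 89.2% of the Robo2 UMIs of RoB quiescent cells and 54.8% of those of Nrp1, with 316 of 651 cells. Elsewhere Robo2 was at 8.86 in RoB and 14.6 in vSVZ cells, that is not higher in the RoB, and Nrp1 at 29.9 and 16.4. With both clusters left out, Nrp1 was still called (0.91 ± 0.25, adjusted p = 0.0156) and Robo2 no longer passed the count filter.

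**Figure D5:**
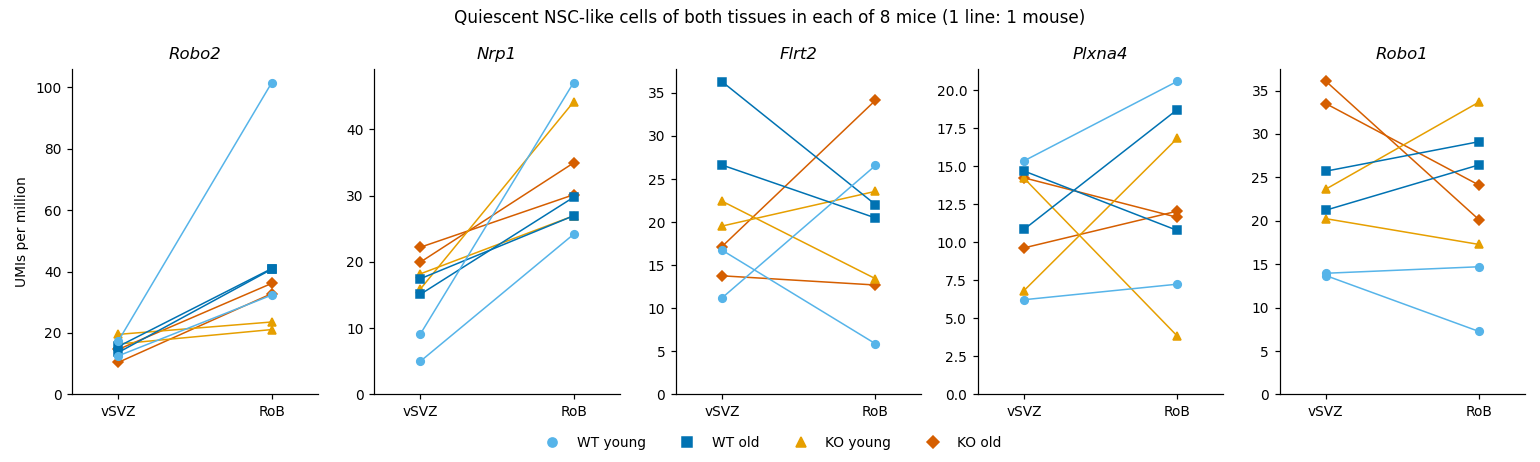
Level (CPM) of 5 members in quiescent NSC-like cells of the vSVZ and the RoB; a line joins the 2 tissues of 1 mouse, coloured by group. All 8 lines go up for Robo2 and Nrp1, while those of Flrt2, Plxna4 and Robo1 cross.

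For 9 of the 10 genes the genes with the most similar pattern are given, taken over 34 sums of a class and library, by Pearson correlation of log2(CPM + 5) across 13857 genes. The sums share libraries and classes, so these values are a description. The nearest genes were Runx1t1, Scrt1 and Sept6 for Robo2 (r = 0.945, 0.920 and 0.920), Dchs2, Glra2 and Rhov for Prokr2 (0.957, 0.949 and 0.943) and Dchs1, Amer1 and Wnt5a for Flrt2 (0.898, 0.842 and 0.841). Slit2 was closest to C230035I16Rik (0.905), Egfr, a marker of activated NSCs (0.891), and Grpr (0.886). Nrp1 was closest to Trim47 (0.952), Hacd4 (0.925) and Smagp (0.924), and Plxnd1 to Scarb1 (0.935), Cp (0.931) and Cnn2 (0.930). Robo1 was closest to Phactr3 (0.880), Eya1 (0.874) and Kif1a (0.869), Nrp2 to Slc36a1 (0.895), Dusp7 (0.894) and Mef2a (0.882), and Dcc to Aff2 (0.848), 1500009L16Rik (0.839) and Camk2n2 (0.826).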

How the data were processed

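Single-cell expression and hashtag libraries of 4 groups (2 mice each) were analysed. The authors removed index-hopped reads and counted the rest with kallisto and bustools, and the submitters' processing notes name GRCm38 and Scanpy 1.6.0. The deposited values are UMI counts per barcode and gene without a cell filter, and hashtag counts per barcode. Whether unspliced reads are included is not given in the sources used here. All 10 members matched by gene ID to the GENCODE annotation of GRCm38.

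Kept were cells in the range of 100 to 6000 genes and 1000 to 20000 UMIs with less than 10% of UMIs from mitochondria. Doublets were predicted in each library (Scrublet in scanpy 1.11.5) and removed. A multinomial mixture of 5 components called hashtags in 32.2% of cells. Clustering (2000 variable genes, 50 components, 15 neighbours, leidenalg 0.10.2 at resolution 1) left out the members, the other guidance genes, the study's interferon genes (among them Nrp2), mitochondrial genes and transgenes. Clusters stayed unnamed if they had under 50 cells, too few raised markers or more markers of another class among their leading genes. The last rule applied to cluster 7.

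Sums of at least 20 cells, over a class and library or over a mouse, entered the quasi-likelihood test of edgeR 4.0.16 (R 4.3.3) after filterByExpr and TMM scaling, with Benjamini-Hochberg adjustment over all genes and a threshold of 0.05. Standard errors are the log2 change divided by the root of F. Intervals are exact at 95%, and intervals and floors (3 counts) cover counting error only. On simulated data with 200 genes changed by 1 on the log2 scale, 78.5% were recovered for neuroblast-like against quiescent NSC-like cells, 47.5% for age in WT quiescent cells, 28% for age in WT neuroblast-like cells and 87% for tissue. Alternatives were DESeq2 1.42.0, RLE size factors, no filter, other clusterings, other hashtag calls, cells of at least 2000 UMIs, and leaving out each mouse or library.

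The members and gene lists were chosen with earlier results of these data known. Named were the 10 members, the 3 called other guidance genes with the largest rise and fall in 2 comparisons, and the 3 genes of most similar pattern, which for Plxna4 are not reported here. Of the 9 samples, 1 with no group in its label was not used, and the label of the young WT hashtag library names further content.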

Additional observations from a re-analysis of the deposited data

Results flagged for a closer look

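Dixon's test of the gap over the range was run on 66 combinations of a gene and a class with 4 libraries. In 9 of them 1 library lay far from the other 3. The threshold is set for about 1 in 20 by chance among replicates, but the 4 libraries are different groups and not replicates. Where 1 library held 1 UMI and the other 3 none, the gap equals the range by itself. The number flagged can therefore not be compared with chance, and these 9 are given as a description. In 6 of them the library that stood apart held 1 or 2 UMIs: Robo1 in microglia-like cells of KO young (1.99 CPM), Dcc in microglia-like cells of WT young (1.41), Plxnd1 in activated NSC-like cells of WT young (0.699) and in TAP-like cells of KO old (2.66), Nrp2 in TAP-like cells of WT young (0.129) and Prokr2 in activated NSC-like cells of WT young (0.699).

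The other 3 rest on more molecules. Slit2 in quiescent NSC-like cells of KO old was at 20.1 CPM (208 UMIs), with the other libraries at 8.58 to 9.36. Nrp1 in neuroblast-like cells of WT old was at 5.41 (10 UMIs), with the others at 1.04 to 1.52. Robo2 in olfactory ensheathing glia-like cells of WT young was at 8.57 (10 UMIs), with the others at 0.635 to 1.67, while Robo2 in near-empty barcodes was at 62.1 and 37.9 (young and old WT) and at 87.3 and 47.9 (young and old KO).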

How the results depend on the processing

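No paired analysis was possible because mice of different groups share only the number of a hashtag, which concerns age and genotype. Tissues were compared with the mouse as a block and classes with the library as a block. Without the mouse as a block the tissue comparison called 1145 genes in place of 1072 and the same number of members. Of 665 values of a member's log2 change under alternatives that kept all mice and libraries, 627 kept direction and side of the threshold, and of 888 with a mouse or library left out, 855 did. In 3 cases a called change turned: Flrt2 from quiescent to activated NSC-like cells was 0.46 with guidance genes in the clustering and 0.56 with doublets kept, and Slit2 from quiescent to neuroblast-like cells was 0.38 at resolution 0.5. Of 93 member changes that were not called, 44 had the other sign under some alternative that did not call them either. Of 360 levels, 20 moved by more than 1 SD. The causes of the changes given here were not tested, other than fewer cells or mice where these were left out.

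For age in WT quiescent cells, 1574 genes were called, against 710 in DESeq2, 1002 with strict hashtag calls, 378 without the eYFP-rich cluster, 408 at resolution 0.5, 49 in the eYFP-rich cluster alone and 552 to 1622 with a mouse left out. The 3 members became 0 under each of these 5 alternatives (Dcc and Plxnd1 had no adjusted p in DESeq2 and were not tested in the other 4, below the count filter) and 0 to 3 with a mouse left out. For age in KO, 477 genes became 132, 165, 155, 163 and 28 under the same alternatives in the same order, and 108 to 522 with a mouse left out. The 1 member, Slit2, became 0 in DESeq2, without the eYFP-rich cluster and at resolution 0.5, 2 with no filter (with Dcc, adjusted p = 0.0410), and 0 to 1 with a mouse left out. For genotype in young mice, 287 genes became 161, 150, 67, 71 and 16, and 41 to 320. For genotype in old mice, 19 became 8, 6, 10, 12 and 1, 60 with no filter, and 10 to 36; with no filter 2 members were called (Flrt2, −1.02, 0.0218; Slit2, 1.15, 0.00890). For the interaction, 105 genes became 192 with no filter, 29 with strict hashtag calls, 27 without the eYFP-rich cluster, 32 at resolution 0.5, 4 in that cluster alone and 18 to 129 with a mouse left out, and the 0 members became 1 with no filter (Flrt2, 0.0184) and 0 to 1.

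In neuroblast-like cells, 189 genes for age in WT became 102 in DESeq2 and 92 to 217 with a mouse left out, and the 1 member, Plxna4, became 0 in DESeq2 and with no filter and 0 to 1 with a mouse left out. Age in KO went from 16 genes to 7 in DESeq2 and 12 to 35, genotype in young from 93 to 36 and 34 to 146, genotype in old from 6 to 0 in DESeq2, 10 with no filter and 3 to 11, and the interaction from 31 to 19 and 13 to 42. The 1 member for genotype in old, Flrt2, became 0 in DESeq2 and 0 to 1 with a mouse left out, and the 0 members of the interaction 0 to 1. Strict hashtag calls were not run in this class, since too few mice kept 20 cells.

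In olfactory ensheathing glia-like cells, no filter gave 430 genes in place of 204 for age in WT, 183 in place of 28 for age in KO, 188 in place of 58 for genotype in young, 117 in place of 39 for genotype in old and 70 in place of 0 for the interaction, and 3 members in place of 0 for age in WT. DESeq2 gave 10 for age in KO and 11 for the interaction. With a mouse left out these counts ran from 0 to 262, 0 to 82, 22 to 90, 20 to 65 and 0 to 22, and the members for age in WT from 0 to 1. In microglia-like cells, 11 genes became 3 in DESeq2 and 15 to 22. Without the clusters over 90% RoB, which were left out after seeing the data, the tissue comparison called 439 genes and 1 member in place of 1072 and 2.

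Depth limits the low members most: in the vSVZ quiescent cells of a group Plxnd1 had at most 18 UMIs and Dcc at most 23. With 2 mice in a group, leaving out 1 left a single mouse whose spread was taken from the other groups.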
